A study of Mus musculus with 6 samples.

Results

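The Fc receptor genes described here are the 7 genes whose products bind the constant part of immunoglobulin G (IgG) or pass on the signal of that binding. They were taken by symbol from a table of 18437 mouse genes: Fcgr1, Fcgr3 and Fcgr4 (activating receptors), Fcer1g (their signal chain), Fcgr2b (the inhibitory receptor), Fcgrt (the neonatal Fc receptor) and Fcgbp (a secreted mucus protein). All 7 symbols were found in the table. RNA was sequenced from tumours that grew in the tongues of C57BL/6 mice after injection of 4MOSC1, a mouse oral squamous carcinoma line used as a model of head and neck cancer. The LIGHT group (3 libraries) came from tumours of 4MOSC1 cells that overexpress LIGHT, the cytokine encoded by Tnfsf14. The control group (3 libraries) came from tumours of 4MOSC1-con cells. Strain, cell line and site of injection are the same in both groups. The age and sex of the mice, the promoter that drives LIGHT, and whether the LIGHT cells are 1 clone were not stated in the labels. No label ties a library to an animal, so a p-value below measures the spread between these samples, which may be partly technical.

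Fc receptors let cells of the immune system read antibody. On macrophages, monocytes and neutrophils, the activating receptors bind IgG and depend on Fcer1g, whose cytoplasmic tail holds an immunoreceptor tyrosine-based activation motif (ITAM). Its phosphorylated tyrosines recruit the kinase Syk and can lead to phagocytosis, cytokine release and antibody-dependent killing. Fcgr2b binds IgG complexes too, but its own tail holds an inhibitory motif (ITIM), which recruits phosphatases such as SHIP1 and dampens signalling on the same cell. Fcgrt pairs with B2m inside cells and returns IgG and albumin to the outside, while Fcgbp is a large secreted protein of mucus.

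The motifs that give Fcer1g and Fcgr2b opposite roles are shown as coding sequence from the GENCODE transcripts (GRCm38), with the tyrosine codons in capitals. The Fcer1g stretch encodes residues 65 to 79 of 86 and holds both tyrosines of the ITAM (a tyrosine, any 2 residues, then leucine or isoleucine, found a second time after 6 to 12 residues). The Fcgr2b stretch encodes residues 317 to 322 of 340 and holds the ITIM.
Fcer1g ITAM: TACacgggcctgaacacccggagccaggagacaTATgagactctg
Fcgr2b ITIM: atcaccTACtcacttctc
The ITAM pattern occurred in 6.44% of 21725 coding genes and the looser ITIM pattern in 48.6%, so a match by letters alone is no site.

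Fcgr2b and Fcgr3 share much of their extracellular coding sequence. The longest identical run, shown because a short read from it cannot be given to one of these genes, was 129 bases long and began at coding base 278 of Fcgr2b and 263 of Fcgr3.
Fcgr2b and Fcgr3 shared run: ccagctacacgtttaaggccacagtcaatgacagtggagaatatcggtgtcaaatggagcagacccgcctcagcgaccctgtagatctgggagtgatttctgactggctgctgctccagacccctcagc
Of the 50-base windows of the coding sequence, 22.1% in Fcgr3 and 17.1% in Fcgr2b occurred in both genes, and of the 100-base windows 6.27% and 4.78%. No 50-base window of either was found in Fcgr1 or Fcgr4. How reads in such windows were counted is not given in the sources, so the levels of Fcgr2b and Fcgr3 are uncertain to that extent.

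Values are TPM, a share of all transcripts that accounts for their length. How many reads lie behind a TPM value is unknown. The gene used to make the model, Tnfsf14, was at 26.24, 25.91 and 23.87 TPM in LIGHT replicates 1, 2 and 3, against 0.66, 0.53 and 0.79 TPM in control replicates 1, 2 and 3. Between 13183 and 13271 genes reached 1 TPM in LIGHT libraries, against 12713 to 12838 in control libraries. The epithelial markers Krt14 and Trp63 were present in all 6 libraries, with Krt14 at 8916 TPM on average in LIGHT tumours and 11421 TPM in control tumours. Tests were limma fits on log2(TPM + 1) over the 13167 genes that reached 1 TPM in at least 3 libraries, with Benjamini-Hochberg adjusted p-values over all of them and a threshold of 0.05.

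In LIGHT tumours, Fcer1g, Fcgrt and Fcgbp were higher than in control tumours, and none of the 7 genes was lower. The 4 IgG receptors of the cell surface, activating and inhibitory alike, did not pass the limma test, although the 3 activating ones had an unadjusted p under 0.05. The estimates of all 7 lay above 0, with a median log2 fold change of 0.42 against 0.09 over all tested genes. Over all tested genes, 17.7% were higher, 5.41% were lower and 62.2% had a positive estimate, so 3 higher genes of 7 stands against a background that itself leaned upwards. That lean depends on scaling. With trimmed-mean factors or quantile normalization the median of all tested genes moved to -0.03 or -0.04, and the higher share of all calls fell to 47.6% or 43.7%, against 76.6% as deposited. Fcgbp was under 1 TPM in each control library and entered the test only through the LIGHT libraries, so its direction was set by that filter. The other 6 genes were above 1 TPM in every library.

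**Figure D1:**
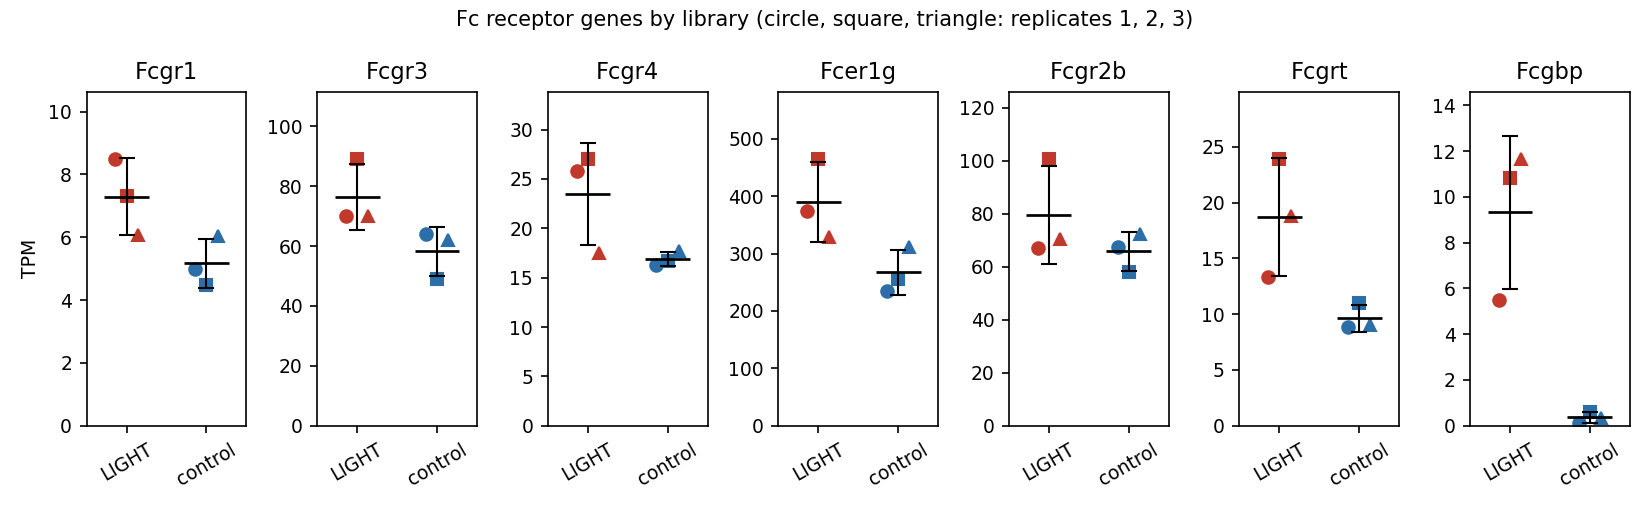
TPM of each Fc receptor gene, a panel per gene with its own linear axis from 0, with LIGHT libraries in red left of control libraries in blue; circles, squares and triangles are replicates 1, 2 and 3, and lines are the mean ± SD. All LIGHT points lie above all control points for 5 genes, a separation that 29.6% of all tested genes showed, and the groups overlap for Fcgr4 and Fcgr2b. Fcgbp is the most widely separated, which the filter on low values favours. Fcgr1 is barely apart, with 6.06 TPM in LIGHT replicate 3 and 6.03 TPM in control replicate 3.

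Among the activating receptors, none passed the test, although the 3 estimates were close together at 1.31-fold to 1.41-fold. Fcgr3 encodes the main low-affinity activating receptor of mouse macrophages, neutrophils and natural killer cells (chr1:171051169-171065915, minus strand, GRCm38). It was at 70.02, 89.17 and 70.09 TPM in LIGHT replicates 1, 2 and 3, against 64.02, 48.98 and 61.98 TPM in control replicates 1, 2 and 3. All LIGHT libraries lay above all control libraries, a separation that 29.6% of all tested genes showed. Its log2 fold change of 0.38 ± 0.14 (SE, n = 3 each) had an unadjusted limma p of 0.0245 and an adjusted p of 0.0833.

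Fcgr4 encodes the mouse receptor most selective for IgG2a and IgG2b (chr1:171018926-171029761, plus strand). It was at 25.79, 27.05 and 17.53 TPM in LIGHT tumours and at 16.33, 16.74 and 17.73 TPM in control tumours. LIGHT replicates 1 and 2 stood well above every control library, while LIGHT replicate 3 lay within their range. The log2 fold change was 0.42 ± 0.16 (SE, n = 3 each; limma adjusted p = 0.0930). Without LIGHT replicate 3 it was 0.61 with an adjusted p of 0.0170, so that single library decided the call.

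Fcgr1 encodes the high-affinity IgG receptor of monocytes and macrophages (chr3:96282909-96293969, minus strand). It was the lowest of the activating receptors, at 8.50, 7.33 and 6.06 TPM in LIGHT tumours, against 5.00, 4.49 and 6.03 TPM in control tumours. The groups were apart by 0.03 TPM only, between LIGHT replicate 3 and control replicate 3. Its log2 fold change of 0.42 ± 0.15 (SE, n = 3 each) had an limma adjusted p of 0.0757.

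The sum of the 3 activating receptors was 104.31, 123.55 and 93.68 TPM in LIGHT libraries, against 85.35, 70.21 and 85.74 TPM in control libraries. Fcgr3 made up most of that sum, with 67.1% to 74.8% in LIGHT libraries and 69.8% to 75.0% in control libraries. Fcgr4 supplied 18.7% to 24.7% in LIGHT libraries and 19.1% to 23.8% in control libraries. Fcgr1 supplied 5.93% to 8.15% in LIGHT libraries and 5.86% to 7.03% in control libraries. The make-up of the activating receptors therefore overlapped between the groups for each of them.

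The 150 bases before the start of each receptor gene are printed here because the 4 receptors are set against each other above and below. They are RefSeq promoter sequences (GRCm38.p6), 5′ to 3′ on the gene's strand, and capitals mark matches on either strand to TTCNNNGAA (the interferon-gamma activated site, GAS), GAAA, any 2 bases and GAAA again (a core of the interferon-stimulated response element) and GAGGAA (a core bound by PU.1).
Fcgr1 (chr3:96293970-96294119, minus strand): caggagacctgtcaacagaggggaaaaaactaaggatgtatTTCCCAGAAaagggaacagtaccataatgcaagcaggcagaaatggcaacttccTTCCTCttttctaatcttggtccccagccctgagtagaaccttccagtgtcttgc
Fcgr3 (chr1:171059395-171059544, minus strand): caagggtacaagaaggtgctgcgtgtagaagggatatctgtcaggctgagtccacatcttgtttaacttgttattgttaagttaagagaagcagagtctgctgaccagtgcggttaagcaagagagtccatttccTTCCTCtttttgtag
Fcgr4 (chr1:171018776-171018925, plus strand): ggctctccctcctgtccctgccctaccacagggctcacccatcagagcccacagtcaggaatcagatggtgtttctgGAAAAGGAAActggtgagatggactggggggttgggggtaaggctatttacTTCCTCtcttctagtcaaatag
Fcgr2b (chr1:170976072-170976221, minus strand): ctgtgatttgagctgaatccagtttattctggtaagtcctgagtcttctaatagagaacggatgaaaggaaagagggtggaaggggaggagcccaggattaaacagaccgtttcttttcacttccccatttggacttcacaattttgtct
The Fcgr3 start used here lies inside the span given above for the gene, and RefSeq lists another start 9 bases away. The PU.1 core occurred in all 3 activating receptor windows, at bases -55 to -50 of Fcgr1, -15 to -10 of Fcgr3 and -22 to -17 of Fcgr4. It occurred in 14.5% of 32851 promoter windows of the same length. The GAS occurred only in the Fcgr1 window among these 4 (bases -109 to -101, 4.09% of all windows), and the response element core only in that of Fcgr4 (bases -73 to -64, 1.59% of all windows). No match was found in the windows of Fcgr2b, Fcer1g, Fcgrt and Fcgbp, which says only that these letters are not there.

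Fcer1g, the ITAM chain shown above (chr1:171229572-171234349, minus strand), rose in LIGHT tumours. It was at 374.12, 465.30 and 329.21 TPM in LIGHT replicates 1, 2 and 3, against 235.31, 256.39 and 311.34 TPM in control replicates 1, 2 and 3. All LIGHT libraries were above all control libraries, LIGHT replicate 3 and control replicate 3 being the nearest to each other. The means were 389.5 ± 69.3 TPM in LIGHT tumours and 267.7 ± 39.3 TPM in control tumours (SD, n = 3 each), a 1.46-fold difference. The log2 fold change was 0.53 ± 0.15 (SE; limma adjusted p = 0.0399). The call was close to the threshold and was lost in 11 of 17 alternatives. Without LIGHT replicate 1, LIGHT replicate 2, control replicate 1 or control replicate 2 the limma adjusted p was 0.0668 to 0.110. It was 0.140 with trimmed-mean factors, 0.102 with quantile normalization, 0.0643 without a filter and 0.0608 with the replicate number as a block. With the haemoglobin covariate it was 0.173, and with the skeletal muscle covariate 0.356.

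Fcer1g exceeded the summed activating receptors in every library, by 3.51 to 3.77 times in LIGHT libraries and 2.76 to 3.65 times in control libraries. Those ranges overlapped. Fcer1g also serves other receptors, among them Clec4n (Dectin-2), which binds fungal mannan, and Ncr1, an activating receptor of natural killer cells. Of 9 such partners, 5 were tested and 2 were higher, Clec4n and Ncr1, with none lower, against 17.7% higher over all tested genes. Clec4n was at 33.69, 33.44 and 30.33 TPM in LIGHT tumours, against 22.21, 20.40 and 16.86 TPM in control tumours (log2 fold change 0.69; limma adjusted p = 0.00683). Ncr1 was at 2.20, 2.06 and 1.97 TPM in LIGHT tumours and at 0.38, 0.30 and 0.71 TPM in control tumours, so it too passed the filter only through LIGHT libraries. Clec4e, a receptor for mycobacterial glycolipid, had a log2 fold change of -0.17 and an limma adjusted p of 0.383.

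Tyrobp (DAP12), the other ITAM chain of myeloid cells, was higher as well. It was at 251.84, 300.03 and 215.73 TPM in LIGHT tumours and at 135.43, 153.07 and 171.91 TPM in control tumours, with no overlap. Its log2 fold change of 0.73 ± 0.14 (SE, n = 3 each; limma adjusted p = 0.0108) stood beside 0.53 for Fcer1g; the difference between the 2 chains was not tested. Of the 7 genes of Tyrobp and its partners, 5 were tested and 3 were higher, against 17.7% over all tested genes. They included Trem2, a lipid receptor of macrophages (1.70-fold). The count was 0 with the skeletal muscle or haemoglobin covariate. Those fits called 625 and 946 of all tested genes higher, against 2325 in the main fit.

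Fcgr2b (chr1:170960558-170976071, minus strand), the inhibitory receptor, had the smallest estimate of the 7 genes. It was at 67.27, 100.82 and 70.59 TPM in LIGHT tumours, against 67.42, 57.97 and 72.47 TPM in control tumours. LIGHT replicate 2 stood above all other libraries, while LIGHT replicates 1 and 3 lay inside the control range. The log2 fold change was 0.25 ± 0.16 (SE, n = 3 each; limma adjusted p = 0.308), and without LIGHT replicate 2 it was 0.07. LIGHT replicate 2 was the highest library for 5 of the 7 genes, all but Fcgr1 and Fcgbp. The same library held the most haemoglobin transcripts (summed 2083 TPM, against 69.8 to 895 in the other 5) and the most skeletal muscle transcripts (5519 TPM, against 2296 to 4441). Their part in these results was not tested beyond fits with the mean log2(TPM + 1) of each of these gene lists as a covariate. In those fits Fcgr2b had a log2 fold change of 0.15 (haemoglobin) and -0.11 (muscle).

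**Figure D2:**
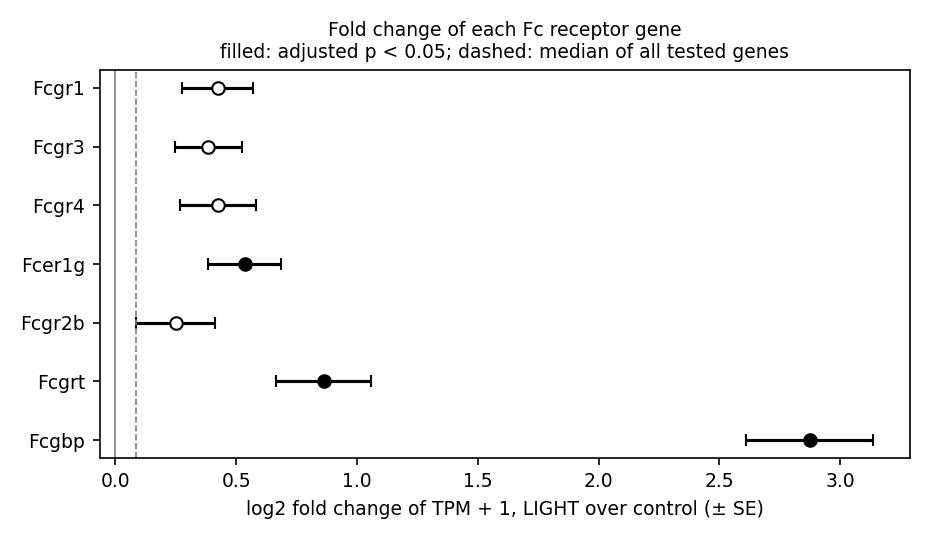
Log2 fold change (LIGHT over control, log2(TPM + 1) scale) of the 7 Fc receptor genes with bars of 1 SE from the limma fit; filled points passed the adjusted threshold and the dashed line is the median of all tested genes. Fcgbp lies farthest out at 2.87, Fcgr2b lies nearest to 0 at 0.25, and the activating receptors lie at 0.38 to 0.42.

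The balance of activating over inhibitory receptors was compared within each library, where the scaling of TPM cancels. The summed activating receptors were 1.55, 1.23 and 1.33 times Fcgr2b in LIGHT replicates 1, 2 and 3, against 1.27, 1.21 and 1.18 times in control replicates 1, 2 and 3. LIGHT replicates 1 and 3 lay above the control range and LIGHT replicate 2 inside it. On the log2 scale the mean ratio was 0.44 ± 0.17 in LIGHT tumours and 0.29 ± 0.05 in control tumours (SD, n = 3 each), a difference of 0.16. The difference was 0.06 without LIGHT replicate 1 and at most 0.23 when any other library was left out.

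Each activating receptor was also set against Fcgr2b alone, in exact two-sided permutation tests over the 20 assignments of the libraries, whose smallest possible p is 0.1. Fcgr3 to Fcgr2b was 1.04, 0.884 and 0.993 in LIGHT tumours, against 0.950, 0.845 and 0.855 in control tumours, a log2 difference of 0.14 (exact permutation p = 0.2). Fcgr4 to Fcgr2b was 0.383, 0.268 and 0.248 in LIGHT tumours, against 0.242, 0.289 and 0.245 in control tumours (log2 difference 0.19; exact permutation p = 0.5). Fcgr1 to Fcgr2b was 0.126, 0.0727 and 0.0858 in LIGHT tumours, against 0.0742, 0.0775 and 0.0832 in control tumours (log2 difference 0.24; exact permutation p = 0.5). For each of these 3 ratios, which share their denominator, the groups overlapped, and each p adjusted over the 3 was 0.5. These tests could not have passed 0.05 whatever the values, so they neither show nor exclude a shift of the balance, and reads that Fcgr2b and Fcgr3 share could not be told apart.

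**Figure D3:**
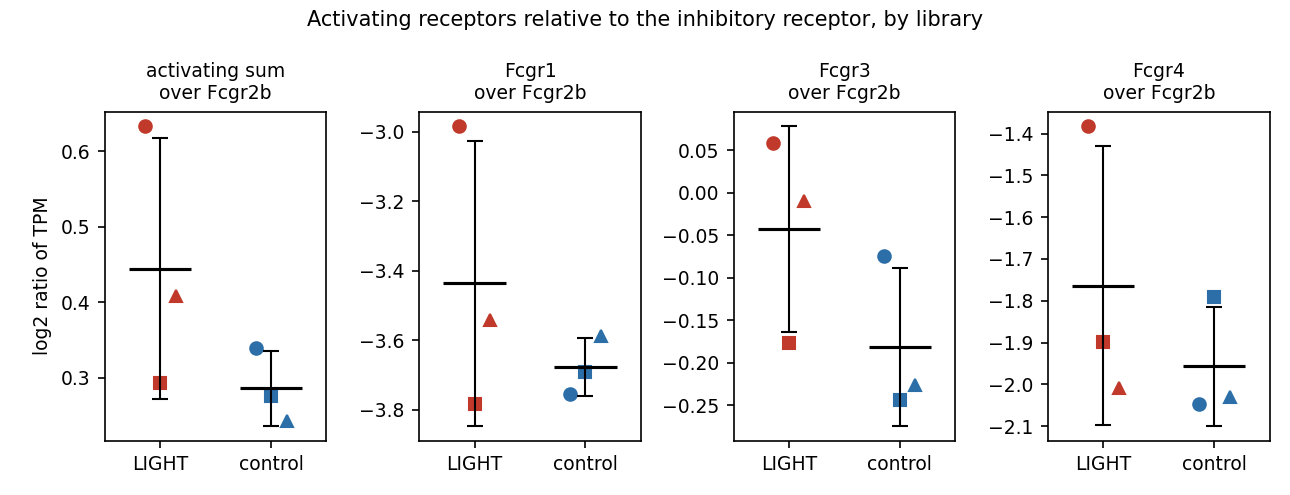
Log2 ratio of TPM to Fcgr2b in each library, for the sum of Fcgr1, Fcgr3 and Fcgr4 and for each of them, with LIGHT libraries in red left of control libraries in blue; circles, squares and triangles are replicates 1, 2 and 3, and lines are the mean ± SD. LIGHT replicate 1 is the highest point in each panel, and the groups overlap in each.

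Fcgrt, the neonatal Fc receptor (chr7:45092993-45103822, minus strand), was higher in LIGHT tumours. It was at 13.38, 23.94 and 18.84 TPM in LIGHT replicates 1, 2 and 3, against 8.88, 11.01 and 9.0 TPM in control replicates 1, 2 and 3. All LIGHT libraries were above all control libraries, with more spread among the LIGHT libraries. The means were 18.7 ± 5.28 TPM in LIGHT tumours and 9.63 ± 1.20 TPM in control tumours (SD, n = 3 each), a 1.94-fold difference. The log2 fold change was 0.86 ± 0.20 (SE; limma adjusted p = 0.0195), and 0.75 with an adjusted p of 0.0449 under trimmed-mean factors. With quantile normalization the call was lost (log2 fold change 0.74; limma adjusted p = 0.0546), as it was with the skeletal muscle covariate (0.58; limma adjusted p = 0.269). The haemoglobin covariate gave 0.51 (limma adjusted p = 0.0464). Without LIGHT replicate 3, control replicate 1 or control replicate 3 the adjusted p was 0.0501 to 0.0657.

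Its partner B2m, the light chain it shares with major histocompatibility class I molecules, was far more abundant and did not pass the test. B2m was at 13800, 12212 and 10460 TPM in LIGHT tumours and at 10212, 10572 and 11196 TPM in control tumours, with overlap (log2 fold change 0.18; limma adjusted p = 0.310). Alb, which encodes the other cargo of the receptor, was at 0.04 TPM or less in every library.

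Fcgbp (chr7:28071236-28120864, plus strand) differed most. It was at 5.50, 10.84 and 11.67 TPM in LIGHT replicates 1, 2 and 3, against 0.14, 0.60 and 0.36 TPM in control replicates 1, 2 and 3. The lowest LIGHT library was well above the highest control library. The means were 9.34 ± 3.35 TPM in LIGHT tumours and 0.367 ± 0.230 TPM in control tumours (SD, n = 3 each), a 25.5-fold ratio whose denominator rests on very low values of unknown depth. The log2 fold change on the log2(TPM + 1) scale was 2.87 ± 0.26 (SE; limma adjusted p = 0.00106), and 4.40 with a pseudocount of 0.1 TPM, since that scale understates the change of low genes. Because the gene passed the filter through its LIGHT values alone, this p-value describes a separation that the filter favours, and with the macrophage covariate the adjusted p was 0.144.

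Other genes of mucus and glandular secretion were read beside Fcgbp. Of 16 such genes, 7 were tested, with 1 higher and 2 lower and a median log2 fold change of -0.13, against 17.7% higher and 5.41% lower over all tested genes, and 9 were under 1 TPM in every library. The lower count was 0 without LIGHT replicate 1 or control replicate 3, and 1 without any other library, with the replicate block or with the haemoglobin covariate. Ltf, which encodes the iron-binding protein lactoferrin, was at 184.47, 215.55 and 170.25 TPM in LIGHT tumours and at 246.50, 394.90 and 289.37 TPM in control tumours, all LIGHT libraries being lower (log2 fold change -0.68; limma adjusted p = 0.0283). Bpifb1, a secreted protein of airway and oral glands, was at 0.39, 0.51 and 1.02 TPM in LIGHT tumours, against 1.82, 1.09 and 1.70 TPM in control tumours. It reached the filter of 3 libraries mainly through the control group, so its direction was set by that filter. The gene that was higher, Pigr, is itself a receptor for polymeric immunoglobulin and is described next.

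Receptors for other immunoglobulin classes were mostly near the limit of the table. Of 13 other Fc receptor genes, 9 were under 1 TPM in every library, among them Fcer1a and Ms4a2 of the high-affinity IgE receptor and Fcer2a, the low-affinity one. The 3 that could be tested, Pigr, Fcrlb and Trim21, were each higher in LIGHT tumours, against 17.7% of all tested genes. The count was 1 without control replicate 2 or control replicate 3, 2 with trimmed-mean factors or quantile normalization, and 0 with the skeletal muscle covariate. Pigr, which carries polymeric IgA and IgM across epithelium, was at 5.32, 4.66 and 3.88 TPM in LIGHT tumours, against 1.79, 1.82 and 2.84 TPM in control tumours (log2 fold change 0.84; limma adjusted p = 0.0119). Trim21, a cytosolic receptor for antibody-coated particles, was at 35.68, 24.41 and 23.22 TPM in LIGHT tumours, against 15.64, 18.40 and 17.47 TPM in control tumours (log2 fold change 0.64; limma adjusted p = 0.0285). Fcrlb, an intracellular Fc receptor-like protein of B cells, was at 3.47, 4.43 and 3.86 TPM in LIGHT tumours, against 2.41, 2.50 and 2.47 TPM in control tumours (log2 fold change 0.50; limma adjusted p = 0.0189).

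The ligand side could hardly be read from these libraries. Of 13 listed genes for immunoglobulin constant regions and the joining chain, Jchain was the only one in the table, at 0.29, 0.34 and 0.48 TPM in LIGHT tumours and 0.08, 0.73 and 0.15 TPM in control tumours. The others were not analysed here. The 5 B cell markers read here summed to 1.51 to 1.83 TPM in LIGHT libraries and 0.27 to 1.01 TPM in control libraries, with Ms4a1 (CD20) at 0.05 TPM or less in LIGHT libraries and listed at 0 in each control library.

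Genes that act downstream of the receptors were read for each arm. Of 16 genes of activating signalling, 8 were higher, 8 were not called and none was lower, with a median log2 fold change of 0.49, against 17.7% higher and a median of 0.09 over all tested genes. The count fell to 4 or 5 whichever library was left out. It was 3 with trimmed-mean factors, 2 with quantile normalization, 1 with the skeletal muscle covariate and 0 with the haemoglobin covariate. Higher calls over all tested genes fell as well, from 2325 to between 1264 and 2027 when a library was left out. They were 1677 with trimmed-mean factors, 1410 with quantile normalization, 625 with the skeletal muscle covariate and 946 with that of haemoglobin. Pik3cd, the leukocyte phosphoinositide 3-kinase subunit, was at 12.36, 12.53 and 11.42 TPM in LIGHT tumours, against 3.51, 6.83 and 5.51 TPM in control tumours (log2 fold change 1.10; limma adjusted p = 0.00832). Lcp2, the adaptor SLP-76, was 1.77-fold higher, Pik3r5, a regulatory subunit of another phosphoinositide 3-kinase, 1.58-fold, and Card9, which links Syk to NF-kappaB, 1.56-fold. Syk itself, the kinase that binds the ITAM, had values of 11.70 to 12.12 TPM in LIGHT libraries and 9.15 to 10.48 TPM in control libraries and did not pass the test (log2 fold change 0.29; limma adjusted p = 0.0610). It was named for its role, after its values were seen.

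Of 7 genes of inhibitory signalling, 5 were higher, 2 were not called and none was lower, with a median log2 fold change of 0.66, against the same 17.7% and 0.09. The count was 3 without LIGHT replicate 2, LIGHT replicate 3 or control replicate 3, 4 with trimmed-mean factors or quantile normalization, and 1 with the haemoglobin or skeletal muscle covariate. Inpp5d, which encodes SHIP1, the phosphatase recruited by the ITIM of Fcgr2b, was at 13.37, 14.67 and 12.56 TPM in LIGHT tumours, against 6.10, 8.48 and 8.14 TPM in control tumours (log2 fold change 0.77; limma adjusted p = 0.00806). Ptpn6, the phosphatase SHP-1, was at 40.82, 37.14 and 34.56 TPM in LIGHT tumours, against 19.59, 27.58 and 23.26 TPM in control tumours (log2 fold change 0.66; limma adjusted p = 0.0125). Dok1, an adaptor bound by SHIP1, was 1.72-fold higher and Inppl1, a relative of SHIP1, 1.43-fold. All LIGHT libraries lay above all control libraries for 12 of the 16 activating and 6 of the 7 inhibitory signalling genes, against 29.6% of all tested genes. Apart from Syk, the genes named from these lists were chosen for small p-values, which favours such a separation.

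**Figure D4:**
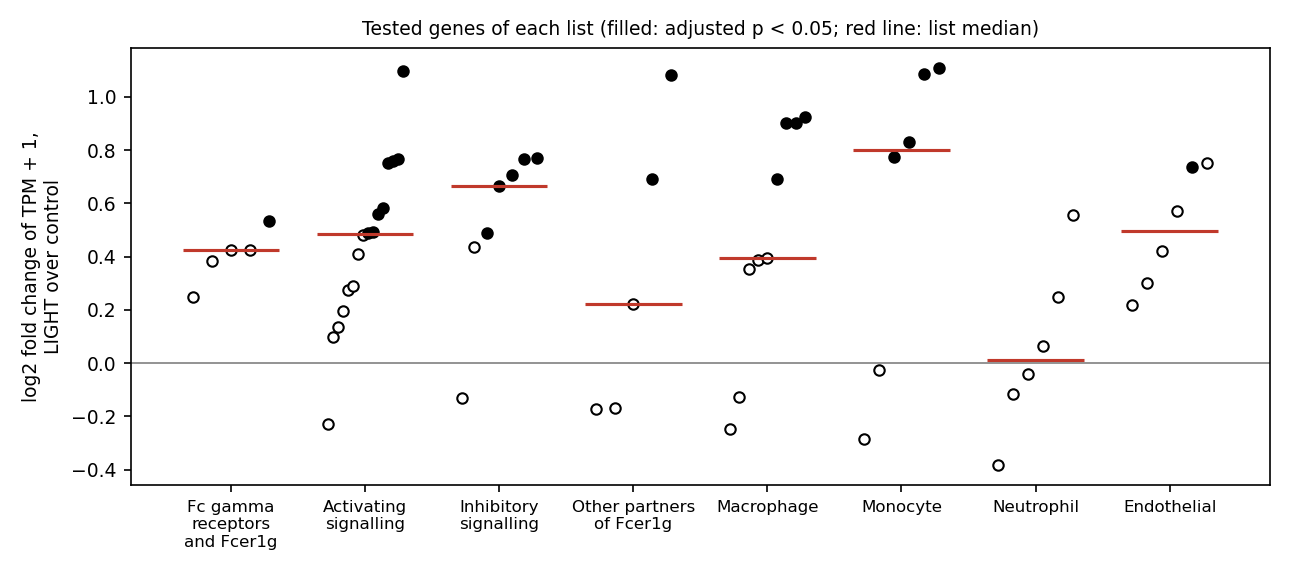
Log2 fold change (LIGHT over control, log2(TPM + 1) scale) of each tested gene in lists of signalling genes, Fcer1g partners and cell type markers beside the 4 IgG receptors and Fcer1g, a point per gene, filled where the adjusted threshold was passed, with a red line at each list's median. Inhibitory signalling has a median of 0.66 and activating signalling 0.49, while neutrophil markers have 0.01 and no filled point.

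Regulators with known links to Fc receptor genes were read beside them. Interferon-gamma induces Fcgr1 in macrophages; of 7 genes of its signalling read here, 6 were higher and none lower, with a median log2 fold change of 0.65, against 17.7% and 0.09 over all tested genes. The count was 3 without control replicate 3, 1 with the skeletal muscle covariate and 2 with that of haemoglobin. Ifngr1, the ligand-binding chain of its receptor, was at 70.77, 66.26 and 68.31 TPM in LIGHT tumours, against 48.52, 43.58 and 38.96 TPM in control tumours (log2 fold change 0.64; limma adjusted p = 0.00499). Of 6 myeloid transcription factors, 3 were higher and none lower, against the same 17.7% higher. With trimmed-mean factors or quantile normalization 1 was lower, and with the skeletal muscle or haemoglobin covariate 0 were higher. Spi1, which encodes PU.1, was at 43.73, 53.20 and 44.70 TPM in LIGHT tumours, against 20.09, 25.58 and 30.40 TPM in control tumours (log2 fold change 0.88; limma adjusted p = 0.00813), whereas Fcgr1, Fcgr3 and Fcgr4 had 0.38 to 0.42. Irf8 and Cebpa were 1.74-fold and 1.47-fold higher. Klf4 went the other way and was not called, with a log2 fold change of -0.25 (limma adjusted p = 0.117).

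Markers of cells that can carry Fc receptors were read beside them, since the tumours hold many cell types. In whole tumour RNA, more cells of a type and more RNA per cell cannot be told apart. Of 10 macrophage markers 9 were tested, with 4 higher (C1qa, C1qb, C1qc and Csf1r) and none lower, against 17.7% higher over all tested genes. The count was 0 with the skeletal muscle covariate. Of the markers not called, Cd14 and Mrc1 had negative estimates (log2 fold change -0.25 and -0.13), and Adgre1, Cd68 and Mertk positive ones. The list summed to 992 to 1347 TPM in LIGHT libraries and 636 to 719 TPM in control libraries, mostly from the C1q genes. C1qa, the complement subunit made by tissue macrophages, was 1.92-fold higher and Csf1r, the receptor for macrophage growth factor, 1.63-fold, against 1.46-fold for Fcer1g. All 4 called markers lay above Fcer1g and all 5 not called lay below it. Among the latter, Mertk was at 1.44-fold, Adgre1 at 1.36-fold and Cd68 at 1.31-fold. The median log2 fold change of the list was 0.39, against 0.53 for Fcer1g. With the mean of the macrophage list as a covariate none of the 7 genes was called, Fcer1g had a log2 fold change of -0.01 and Fcgr2b of -0.50. In that fit only 5 of all tested genes were called higher and 1 lower.

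Of 6 monocyte markers, 4 were higher and none lower, against 17.7% higher over all tested genes. The count was 2 without LIGHT replicate 3, control replicate 1 or control replicate 3. It was also 2 with trimmed-mean factors or quantile normalization, and 1 with the haemoglobin covariate. Plac8 and Itgam were not called, with log2 fold changes of -0.29 and -0.02. The list summed to 560 to 710 TPM in LIGHT libraries and 334 to 482 TPM in control libraries, Lyz2 being the largest part. Neutrophil markers gave no call among 6 tested, and none had an unadjusted limma p under 0.05. Without LIGHT replicate 1 or LIGHT replicate 2, however, 1 of them was called higher. Their sums were 429 to 2968 TPM in LIGHT libraries and 1381 to 1777 TPM in control libraries. The lowest of these sums was in LIGHT replicate 2, where 5 of the 7 Fc receptor genes were highest. However, S100a8 and S100a9 made up most of every neutrophil sum. In LIGHT replicate 2 those genes were at their lowest (105.21 and 253.37 TPM), whereas Retnlg and Mmp9 were at their highest (33.69 and 8.91 TPM). The other tested neutrophil markers were at neither extreme there. Natural killer cell markers summed to 119 to 163 TPM in LIGHT libraries and 31.1 to 76.1 TPM in control libraries, mostly from Nkg7. Of the 4 tested, 3 were higher (Nkg7, Klrk1 and Ncr1), against the same 17.7%. Ncr1 passed the filter only through LIGHT libraries. Eomes was not called, with a log2 fold change of -0.20, and Klrb1c was not tested. T cell markers summed to 142 to 175 TPM in LIGHT libraries and 41.5 to 90.5 TPM in control libraries. Of the 5 tested, 4 were higher, against the same 17.7%. The 6 epithelial markers gave no call, and 3 of them had an unadjusted limma p under 0.05. Of those, Epcam had a positive log2 fold change (0.28), with all LIGHT libraries above all control libraries. Krt14 and Trp63 had negative ones (-0.37 and -0.38), with all LIGHT libraries below all control libraries. Endothelial markers, of interest for Fcgrt because endothelium recycles IgG, summed to 36.8 to 67.4 TPM in LIGHT libraries and 20.4 to 39.3 TPM in control libraries. Vwf was the 1 of 6 tested that was higher, against the same 17.7%. Of 7 dendritic cell markers 2 were tested and both were higher, Itgax (2.07-fold) and Ccr7 (2.67-fold), against the same 17.7%. Of 5 mast cell markers tested, 1 was higher, Kit. Ear2, the 1 eosinophil marker tested, was higher too, from low control values of 0.86, 0.33 and 1.96 TPM. The part of these cell types in the Fc receptor values was not tested beyond the fit with the macrophage list.

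The order of levels was the same at the top in both groups. In LIGHT tumours Fcer1g was highest, followed by Fcgr2b and Fcgr3, whose ranges overlapped. Next came Fcgr4 and Fcgrt, which overlapped, and then Fcgbp and Fcgr1, which also overlapped. In control tumours Fcer1g again led Fcgr2b and Fcgr3, which overlapped, and then Fcgr4, Fcgrt, Fcgr1 and Fcgbp followed with no overlap between neighbours. Fcgbp was thus last in control tumours and level with Fcgr1 in LIGHT tumours.

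The genes whose pattern over the 6 libraries was most like that of a member were found by Pearson correlation of log2(TPM + 1). These are descriptions, since 6 points in 2 groups leave many genes with a high value. Nearest to Fcer1g were Gm21188 (r = 0.998) and Ly86 (MD-1, r = 0.987), and nearest to Fcgr3 were Htr2b (r = 0.986), Mertk (r = 0.981), a receptor for dying cells, and Egr2 (r = 0.980). Fcgr1 ran closest to Cfb (r = 0.984), complement factor B, and Ctsh (r = 0.979), a cathepsin. Fcgr4 was closest to Cndp2 (r = 0.998) and Fcgr2b to Dlk2 (r = 0.976). Fcgrt was closest to Fam174b (r = 0.999), and Fcgbp to Il20rb (r = 0.998).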

How the data were processed

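RNA of tongue tumours was sequenced in 6 libraries after ribosomal RNA removal. The deposited table holds TPM per gene with 2 decimals, made by the authors; HISAT, Bowtie2 and GRCm38.p6 are listed in the submitters' processing notes without version or role, and how genes were quantified and whether strand was used is not given in the sources used here. Depth is unknown, so no counting interval is given. Groups were taken from the sample titles. Genes with at least 1 TPM in at least 3 libraries were fitted in limma 3.58.1 (R 4.3.3) as log2(TPM + 1), LIGHT against control, with an eBayes trend and Benjamini-Hochberg adjustment over all tested genes. Fold changes of low genes are understated on this scale. Alternatives were other pseudocounts, filters and scalings (trimmed-mean factors or quantile normalization), marker covariates, no trend, a replicate block and leaving out each library. The Fc receptor genes and lists were chosen with earlier results of these data known. From each list up to 4 genes of smallest p are named. Macrophage and monocyte markers that were not called are named besides, after their values were seen. For each Fc receptor gene the 3 most alike were found. Coding sequence came from GENCODE transcripts and promoters from RefSeq. Of the listed genes, 2 are not reported here and were left out of their lists.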

Additional observations from a re-analysis of the deposited data

How the results depend on the processing

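Of the 7 Fc receptor genes, 3 were higher with pseudocounts of 0.1 or 0.5, a filter of 5 TPM or no eBayes trend, 2 without a filter, with trimmed-mean factors or with the haemoglobin covariate, 1 with quantile normalization or the skeletal muscle covariate, and 0 with the macrophage covariate. Leaving out each library in turn gave 1 to 3, the lowest without control replicate 1. None was lower under any of these. Among estimates, Fcgr3 turned to -0.15, Fcer1g to -0.012 and Fcgr2b to -0.50 with the macrophage covariate, and Fcgr2b to -0.11 with the skeletal muscle covariate; the cause was not tested. With the replicate number as a block 2 members were higher, Fcgrt and Fcgbp. Deviations of same-numbered libraries correlated at 0.37, 0.24 and 0.01, so the numbers were not treated as pairs.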
